A study of Mus musculus with 4 samples.

Results

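A set of 6 imprinted mouse genes was examined for DNA methylation in the offspring of estriol-treated dams: Peg3, Usp29, Plagl1, Grb10, Igf2r and Airn. In the hippocampus, a CpG site belonged to a gene when it lay between 1 kb before the gene's start and its end in the mm10 RefSeq annotation and had at least 5 reads in both libraries. This gave 546 of 2226271 measured CpG sites, a site being 1 cytosine on 1 strand. In the frontal cortex, a site belonged to a gene when the deposited table placed it in the promoter, an exon or an intron of that gene, which gave 8 of 9731 called CpG sites. All 6 genes had a measured hippocampus site, as did 34125 RefSeq genes in the whole data set.

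An imprinted gene is expressed mainly from the copy inherited from 1 parent, and the copies are told apart by differentially methylated regions (DMRs) that carry methylation on only 1 parental chromosome. In a bulk sample such a region therefore reads near the middle of the scale rather than near either end. Peg3 and Usp29 are transcribed in opposite directions from a shared promoter that is methylated on the maternal chromosome, and Plagl1 is likewise expressed from the paternal copy. Grb10 has a brain-specific paternal transcript that starts inside the gene. Igf2r is expressed from the maternal chromosome, and the paternal chromosome instead makes Airn, a long noncoding RNA that starts in an Igf2r intron and runs against it. The KRAB zinc finger protein ZFP57 binds methylated DNA at many imprinted DMRs and recruits TRIM28, which protects the methylation there after fertilization.

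The data came from 4 libraries of female, wild type CD-1 offspring aged 8 weeks, 1 library for each of frontal cortex and hippocampus from E3 and CT animals. Their mothers, CD-1 females, had carried an osmotic pump for 7 days from gestation day 9, filled with 50 µl of either estriol at 0.46 mg/ml in DMSO (E3) or DMSO alone (CT). DNA was cut with TaqαI and MspI, bisulfite-treated and sequenced, so only CpGs near these cut sites were read. The sources do not say whether a library held 1 animal or several, and with 1 library per group no difference has a replicate check. Each test below compares the reads of a pair of libraries, not the treatments. CD-1 is an outbred stock, and in bulk tissue a different mix of cells cannot be told apart from a change within cells. The member sites had a median of 26 reads in the E3 hippocampus and 9 in the CT hippocampus, against 27 and 9 over all measured sites. All intervals are Wilson 95% intervals (Newcombe for differences) and cover counting error only. A level of 0 allows up to 3 counts of the reads behind it. For the frontal cortex only levels are given, and their depth is unknown.

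The sequences shown are the plus strand of 5 stretches of GRCm38.p6 (mm10), chosen as the frontal cortex sites of Peg3 and Plagl1 and the start or intermediate regions measured in the hippocampus, with capitals at each CpG that has a value in these data. The Peg3 frontal cortex stretch (chr7:6729770-6729918, inside Peg3 next to its start) holds the 5 called Peg3 sites. The shared promoter stretch (chr7:6730257-6730333) lies between these sites and the start. The Plagl1 stretch (chr10:13090680-13090940) runs from the 2 frontal cortex sites across the Plagl1 start. The Grb10 stretch (chr11:12026180-12026350) lies in an intron, and the Airn stretch (chr17:12742415-12742494) in an intron of both Airn and Igf2r.
Peg3 frontal cortex stretch: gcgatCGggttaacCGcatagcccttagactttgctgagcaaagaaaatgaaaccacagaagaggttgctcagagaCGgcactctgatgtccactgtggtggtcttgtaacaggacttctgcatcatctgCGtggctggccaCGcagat
Peg3 and Usp29 shared promoter: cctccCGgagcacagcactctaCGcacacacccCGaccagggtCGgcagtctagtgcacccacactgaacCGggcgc
Plagl1 promoter: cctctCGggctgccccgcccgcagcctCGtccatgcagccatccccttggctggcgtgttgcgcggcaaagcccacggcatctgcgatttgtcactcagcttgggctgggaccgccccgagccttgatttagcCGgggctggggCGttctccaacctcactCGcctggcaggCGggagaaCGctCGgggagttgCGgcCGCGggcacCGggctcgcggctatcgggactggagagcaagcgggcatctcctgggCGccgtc
Grb10 inner region: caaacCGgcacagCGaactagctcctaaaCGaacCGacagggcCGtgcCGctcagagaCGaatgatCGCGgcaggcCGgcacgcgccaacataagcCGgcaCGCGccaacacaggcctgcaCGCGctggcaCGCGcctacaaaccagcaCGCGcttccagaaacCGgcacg
Airn 5′ region: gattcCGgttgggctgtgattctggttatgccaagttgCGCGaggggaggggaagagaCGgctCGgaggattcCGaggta

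Over the 6 genes, 46 of the 546 hippocampus sites were higher and 39 were lower in E3 by at least 10 points with an unadjusted p under 0.05 in a 2-sided Fisher's exact test. Over all measured sites 6.18% were higher and 4.83% lower, 11.0% together. Peg3 stood on the lower side, with 1 of 63 sites higher and 23 lower. Usp29 had 21 of 187 sites higher and 8 lower, Plagl1 6 of 58 higher and 0 lower, and Grb10 10 of 105 higher and 2 lower. Igf2r had 3 of 117 higher and 7 lower, and Airn 7 of 104 higher and 6 lower. Peg3 and Usp29 shared 15 of these sites, and Igf2r and Airn shared 73. Sites of intermediate level were called more often in the whole data set. Among member sites with a mean level of 30 to 70%, 47 of 132 were called, against 39.1% of all such sites. Neighboring CpGs are also read on the same molecules, so called sites came in blocks. The 23 lower Peg3 sites lay on 7 strands of restriction fragments, the 10 higher Grb10 sites on 2, and the 21 higher Usp29 sites on 15.

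**Figure D1:**
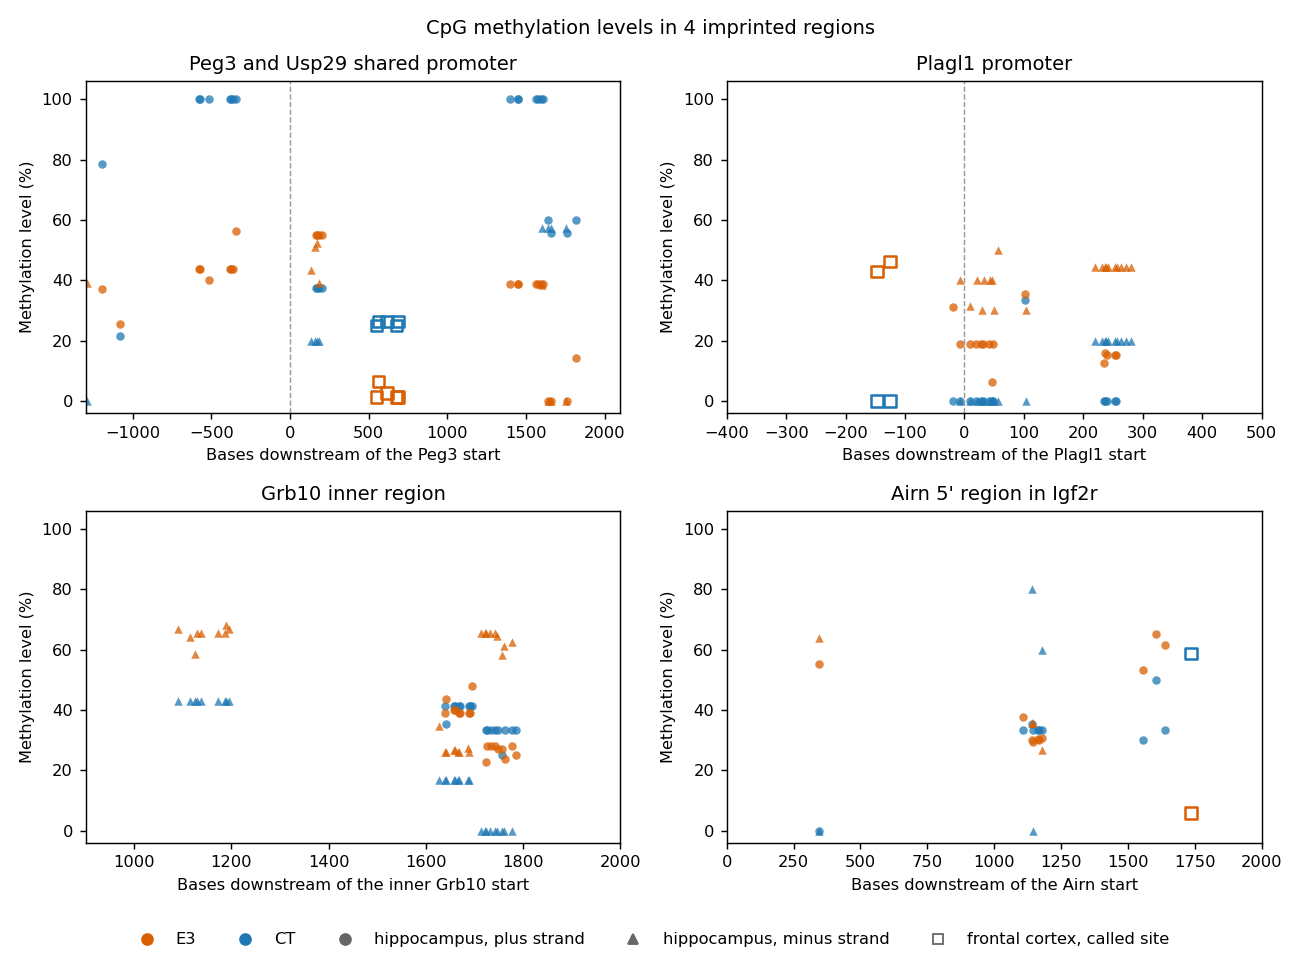
Methylation level (%) of each CpG against its distance in bases downstream of the named start, in E3 (orange) and CT (blue). Circles and triangles are hippocampus sites on the plus and minus strand, and open squares are frontal cortex called sites. The 5 frontal cortex sites at Peg3 sit at 1.30 to 6.49% in E3 and at 25 to 26.4% in CT, and the 2 at Plagl1 at 42.9 and 46.2% in E3 and 0% in CT.

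Peg3 encodes a large zinc finger protein that is made in brain and placenta. Its hippocampus promoter, 1 kb each side of the start, was near the middle of the scale in both libraries, at 49.1% of 411 read calls in E3 (44.3 to 54.0) and 52.6% of 133 in CT (44.2 to 60.9). The difference of -3.48 points (-13.1 to 6.24) was not called (adjusted p = 0.714, Fisher's exact test with Benjamini-Hochberg adjustment over 20169 promoters). That near-equal sum held blocks that went opposite ways, so it moved with the sites taken: with at least 10 reads a site it was 20.2 points higher in E3 (6 sites), and over the 1 kb before the start alone 55.0 points lower (7 sites, 45.0% in E3 and 100% in CT). In the shared promoter stretch printed above, the 4 plus strand sites read 55.0% in E3 and 37.5% in CT, and the 4 minus strand sites 39.1 to 52.2% in E3 and 20% in CT. Summed over the 500-base tile of 8 sites that holds it, the level was 50.7% of 300 in E3 and 30.8% of 91 in CT, 19.9 points higher (8.33 to 30.1, adjusted p = 0.00779, Fisher's exact test). In the next tile upstream of Peg3, inside Usp29, 5 sites read 45.6% of 79 in E3 and 100% of 30 in CT, a difference of -54.4 points (-65.0 to -38.7, adjusted p = 6.33e-07, Fisher's exact test).

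Further into Peg3, an intron held a block that read alike on both strands. At each of 3 CpGs (positions 6728704, 6728804 and 6728823 of chromosome 7) E3 was 0% on both strands, with 7 reads on the plus and 13 on the minus strand, which allows up to 42.9% and 23.1%. CT was 55.6 to 60.0% on the plus and 57.1% on the minus strand at the same CpGs. These 3 CpGs were called lower on both strands. A neighboring plus strand block of 7 sites read 38.9% of 18 reads in E3 and 100% of 5 in CT. The 12 sites of the tile summed to 22.4% in E3 and 67.4% in CT (difference -45.1 points, -55.8 to -32.3, adjusted p = 7.13e-10, Fisher's exact test). In an exon near the far end of Peg3, the minus strand site at position 6708588 was 48.2% of 56 reads in E3 and 100% of 14 in CT (p = 0.000197, exact), and its tile of 13 sites 63.2% and 94.6%. The only Peg3 site called higher, at position 6711888 in an exon, was 100% of 40 reads in E3 and 72.7% of 11 in CT.

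In the frontal cortex, all 5 called sites of the Peg3 and Usp29 promoter were lower in E3, and their levels hardly varied. They lay 550 to 687 bases inside Peg3 from its start, and 2 of them were placed in a CpG island. CT was 26.4, 25, 26.4, 26.4 and 25%, and E3 1.30, 1.30, 2.60, 6.49 and 1.32%, in order of position. Only called sites were deposited, so E3 and CT had to differ at each of them. The 5 are neighboring CpGs read in 1 library per group, not replicates. Of the 8 member sites 6 were lower, and of all called sites 63.7% were lower. None of the 5 was measured in the hippocampus, where the nearest site with enough reads was 350 to 487 bases away.

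Usp29, a ubiquitin-specific protease gene, spans a long region with measured sites over most of its length. Its promoter shares all but 1 of its 16 sites with that of Peg3 and read 46.5% in E3 and 49.7% in CT (adjusted p = 0.729, Fisher's exact test). It turned with the sites taken, to 19.9 points higher in E3 over the 1 kb before the start (8 sites) and 17.4 higher with at least 10 reads a site (7 sites), both called. Inside the gene 4 tiles were called. The one next to the start is the lower tile described with Peg3 (-54.4 points), and the other 3, farther in, were higher in E3. They read 92.2% against 60.4% in CT (6 sites), 44.1% against 26.2% (10 sites) and 72.3% against 56.9% (25 sites), with adjusted p of 3.36e-06, 0.00594 and 0.00024. The intron site at position 6944830 was 77.0% of 74 reads in E3 and 5.88% of 17 in CT (p = 5.99e-08, Fisher's exact test). At position 6735740 the strands differed: the plus strand was 78.4% of 51 and 100% of 6, whereas the minus strand was 93.3% of 15 in E3 and 0% of 11 in CT.

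Plagl1 (also called Zac1) encodes a zinc finger transcription factor that restrains cell growth, and its promoter was the only one called of the 5 member promoters tested. It read 28.5% of 653 in E3 (25.2 to 32.1) and 6.52% of 276 in CT (4.17 to 10.1), a difference of 22 points (17.1 to 26.2, adjusted p = 1.23e-13, Fisher's exact test). Over all tested promoters 9.67% were called. All 35 sites of the promoter were higher in E3, and 4 of them were called on their own. The 35 sites lay on 6 strands of restriction fragments, so they are not 35 separate readings. With each read counted once, none of these 6 strands was called. The plus strand block across the start read mostly 18.8% in E3, the minus strand block 30.0 to 50.0%, and CT was 0% at every site of both. The CT zeros rest on 5 to 14 reads a site, where 5 reads allow up to 60% and 14 reads up to 21.4%. Further inside the gene, past the promoter, the 2 tested tiles read 95.5 and 87.3% in E3 and 90.2 and 86.0% in CT and were not called. The same 35 sites form the promoter of Hymai, a noncoding RNA that starts at the same place.

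The frontal cortex gave the same direction in the Plagl1 promoter. Its 2 called sites, at -147 and -125 bases from the start and both in a CpG island, were 42.9 and 46.2% in E3 and 0% in CT. The 2 are neighboring CpGs read in 1 library per group at unknown depth, not replicates. Only called sites were deposited, so E3 and CT had to differ at both. Neither was measured in the hippocampus, but the 18 hippocampus sites within 200 bases summed to 25.7% of 311 in E3 and 0% of 144 in CT. These sums count a read once for every CpG, and the 18 sites lay on 2 fragment strands. With each read counted once, CT had 5 and 7 reads on them, and neither strand was called. The Plagl1 stretch printed above holds 27 CpGs, of which 13 had a value. The 300-base window around the Plagl1 start in RefSeq, most of it before the start, held 26 CpGs, against a median of 7 over 32851 windows, and 1 match to TGCCGC, the core ZFP57 motif, on either strand. Of all windows 11.6% hold this motif. Among the other member windows only that of the main Grb10 start also held it (1 match, 45 CpGs). No member window held GCCATNTT, the YY1 motif known from the Peg3 region, which 6.05% of all windows do. A match describes the letters and is not evidence of binding, and the windows do not reach the frontal cortex stretch of Peg3.

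**Figure D2:**
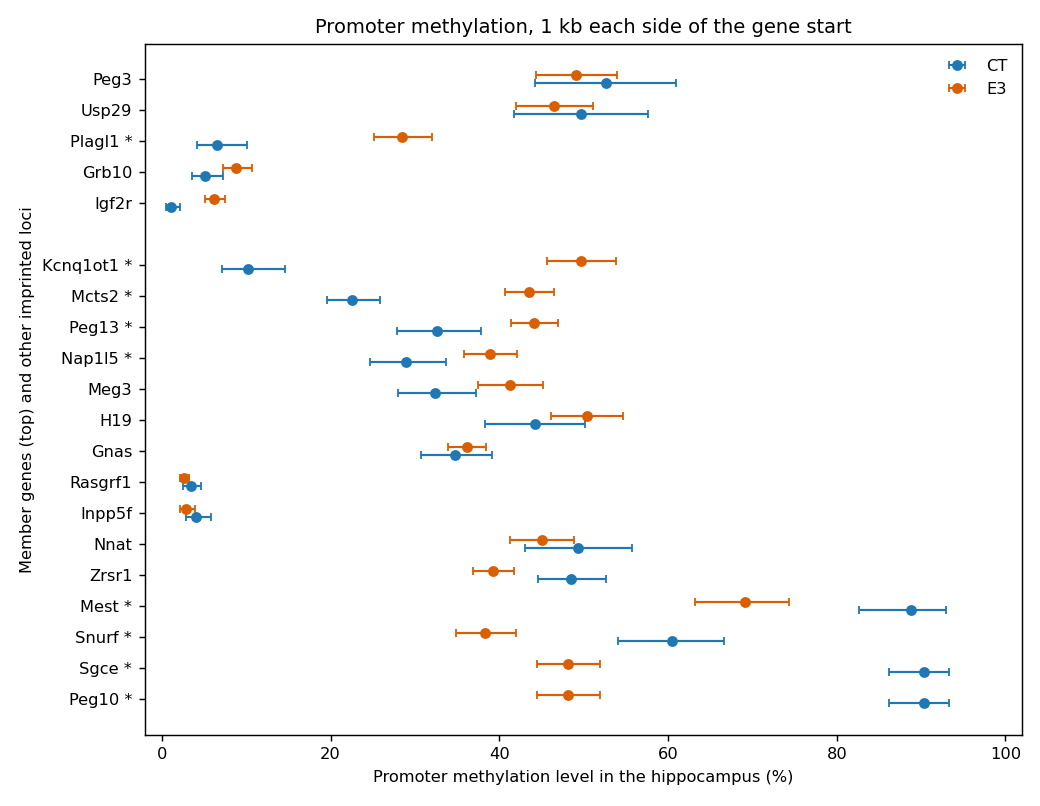
Hippocampus promoter methylation (%, 1 kb each side of the gene start) in E3 (orange) and CT (blue) for 5 member genes (top) and 15 other imprinted loci, with 95% Wilson intervals. Asterisks mark called promoters: Plagl1 among the members, and 8 of the others, 4 higher and 4 lower in E3. Peg10 and Sgce are the same sites shown again.

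Grb10 encodes an adaptor that binds and dampens the insulin and IGF1 receptors. Its main promoter was nearly unmethylated, at 8.81% in E3 and 5.13% in CT over 51 sites, and the difference of 3.68 points was below the 10-point minimum (adjusted p = 0.0274, Fisher's exact test). The intermediate levels lay inside the gene, in an intron downstream of the inner start at position 12027971. The tile of 36 sites that holds the printed Grb10 stretch read 40.2% of 1415 in E3 and 28.1% of 455 in CT (adjusted p = 5.13e-05, Fisher's exact test). This difference came from 1 strand. On the minus strand of the fragment at 12026194 to 12026257, all 9 sites were 58.1 to 65.6% in E3 and 0% in CT (for example 65.6% of 64 reads and 0% of 12 at position 12026229, exact p = 1.77e-05, which allows up to 25% in CT). With each read counted once, this strand was 62.5% of 32 in E3 and 0% of 6 in CT, which allows up to 50%. The p was then 0.00672 and the adjusted p 0.26 (Fisher's exact test). On the plus strand of this fragment, the same CpGs were 22.6 to 28.1% in E3 and 25 to 33.3% in CT. With plus strand sites alone the tile was 6.16 points lower in E3, and with minus strand sites alone 39.8 points higher. The next tile, of 9 minus strand sites, read 64.9% in E3 and 42.9% in CT (22.1 points higher, adjusted p = 0.00169, Fisher's exact test). At a different place, the exon site at position 11930753 on the minus strand was 97.2% of 36 reads in E3 and 33.3% of 6 in CT.

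Igf2r encodes the mannose-6-phosphate receptor, which takes up the growth factor IGF2 for breakdown. Its promoter was nearly unmethylated, at 6.21% of 1739 in E3 and 1.04% of 674 in CT, a difference of 5.17 points below the minimum for a call. Within that promoter 1 site stood apart: position 12769510 was 3.57% of 28 reads in E3 and 85.7% of 7 in CT (p = 2.93e-05, exact), while the other 14 sites of its fragment strand were all 0% of 14 in CT and 0 to 25% in E3. Toward the far end of the gene, 2 tiles were lower in E3. The first read 45.0% of 189 in E3 and 89.9% of 99 in CT over 9 sites (-44.9 points, -53.2 to -34.6, adjusted p = 1.55e-12, Fisher's exact test), and the second 53.4% and 82.8% over 6 sites (adjusted p = 0.000402). Tiles between them and the Airn start were 91.1 to 96.8% in E3 and 87.1 to 100% in CT.

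Airn is the antisense RNA that silences Igf2r on the paternal chromosome, and its DMR lies at its start. Only 2 sites were measured in its promoter, the strands of 1 CpG, too few for a promoter test. They read 55.2% of 58 and 63.9% of 36 in E3 and 0% of 7 and 0% of 8 in CT (p = 0.011 and 0.00115, exact), where the zeros allow up to 42.9% and 37.5%. In the Airn stretch printed above, 1109 to 1178 bases inside Airn, the levels were close. The 6 plus strand sites were 29.5 to 37.5% in E3 and 33.3 to 35.3% in CT. The tile of 9 sites read 31.0% of 377 in E3 and 35.4% of 113 in CT (-4.36 points, -14.6 to 5.16, adjusted p = 0.634, Fisher's exact test). Far inside Airn, the intron site at position 12844009 was 72.5% of 51 in E3 and 0% of 13 in CT (p = 1.53e-06, exact). At the CpG at position 12840387 the strands went opposite ways, at 60.0% of 20 in E3 and 15.4% of 26 in CT on the plus strand and at 43.8% of 32 and 100% of 18 on the minus strand.

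The 1 frontal cortex CpG called in Igf2r and Airn, at position 12743047 in an intron of both, was 5.88% in E3 and 58.6% in CT. The nearest hippocampus site lay 98 bases away. The 3 hippocampus sites within 200 bases went the other way, summing to 21.5 points higher in E3.

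**Figure D3:**
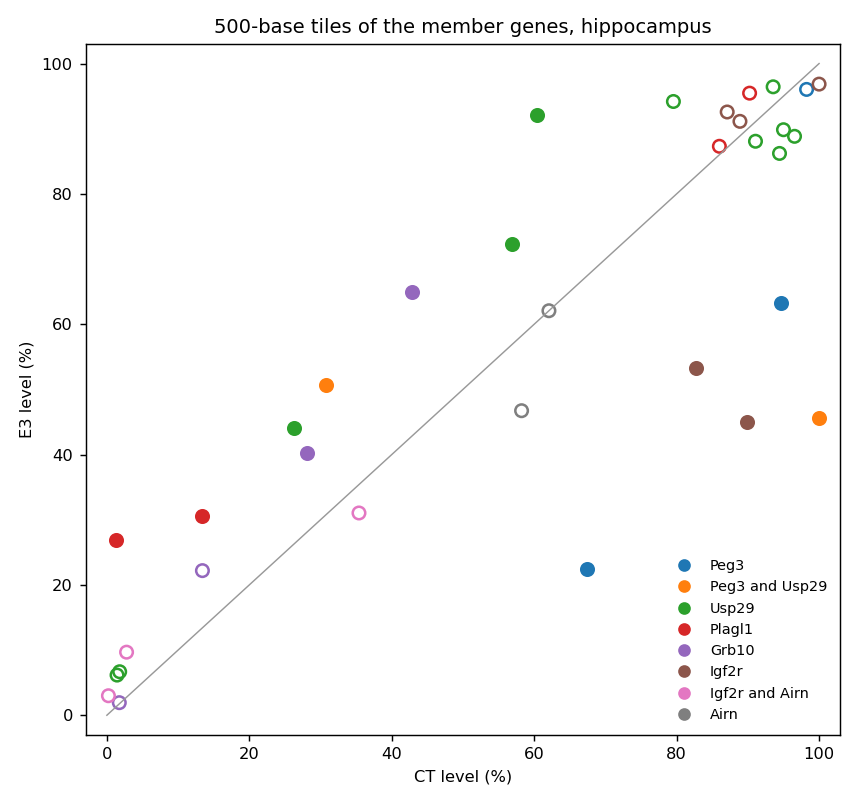
E3 level against CT level (%) in the hippocampus for the 34 tiles of 500 bases in the 6 genes, with at least 5 measured sites each. Filled points are called tiles (8 higher, 5 lower) and the line marks equal levels. The called tiles lie away from both ends of the scale in at least 1 library, and the tiles near 0 or 100% in both libraries lie along the line.

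Across the 34 member tiles, 8 were called higher and 5 lower in E3, against 17.3% of all tiles called. Tiles of intermediate level were called more often in the whole data set too: of the member tiles with a mean level of 30 to 70%, 8 of 11 were called, and of all such tiles 36.9%. In 5 member tiles both libraries lay between 30 and 70%, namely 1 of Peg3 and Usp29, 1 of Grb10, 1 of Igf2r and Airn and 2 of Airn. The 3 of these in Airn or its overlap with Igf2r were not called. With promoters taken at each annotated transcript start, 1 of 10 member windows was called, again that of Plagl1, against 8.32% of all. The inner starts of Grb10 and Peg3 and the Airn start had under 5 measured sites.

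Most of these calls did not last when each read was counted once. Summing sites counts a read once for every CpG it covers. Counting it once per fragment strand, by the fewest reads of its sites, left 157 member fragment strands, of which 10 were higher and 9 lower at an unadjusted p under 0.05, against 7.03% of all. At a mean level of 30 to 70% it was 12 of 40, against 20.9%. None of the 157 passed a Benjamini-Hochberg adjusted p of 0.05, while 5475 of 703538 fragment strands did. The Plagl1 promoter counted this way was 29.2% of 130 in E3 and 8.11% of 37 in CT, a difference of 21.1 points (6.13 to 31.0) with p = 0.00863 and adjusted p = 0.224 in Fisher's exact test, and no member promoter was called (1.18% of all). Of the 13 called tiles 1 was still called, the exon tile of Peg3 at 60.3% of 136 and 96.3% of 27 (adjusted p = 0.0248, Fisher's exact test), against 0.643% of all tiles. The differences of the lost tiles stayed of similar size: the Peg3 intron tile was at -45.6 points, the tile at the start of Usp29 at -53.3, the first Igf2r tile at -48.1 and the first inner Usp29 tile at 33.6.

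**Figure D4:**
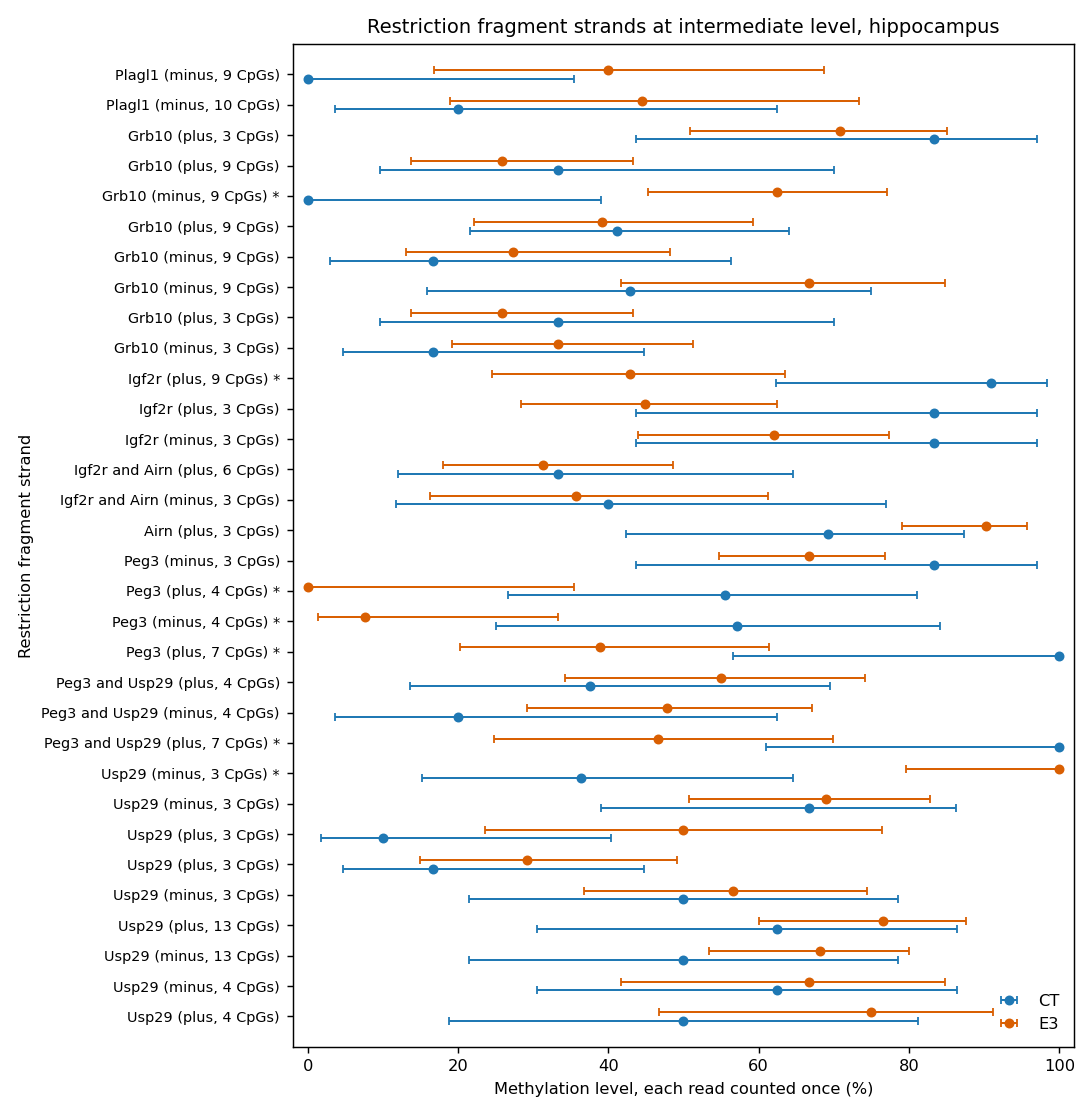
Hippocampus methylation level (%) of 32 restriction fragment strands of the member genes with at least 3 CpGs and a mean level of 20 to 80%, each read counted once, in E3 (orange) and CT (blue), with 95% Wilson intervals. Asterisks mark the 7 called at an unadjusted p under 0.05 (2 higher, 5 lower). The intervals of E3 and CT overlap in 30 of the 32, and in 95.3% of all fragment strands of this kind, of which 10.6% were called.

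The opposite strands of a CpG come from different sequenced fragments and so give another reading of the same CpG. Of 111 member CpGs read on both strands, 34 were called on at least 1 strand, 6 on both in the same direction and 1 on both in opposite directions. That is 17.6% of the CpGs called on a strand with a same-direction call on both, against 8.81% in the whole data set. At a mean level of 30 to 70% the order turned, with 1 of 13 such member CpGs (7.69%) against 13.9%. The 6 were the 3 Peg3 intron CpGs, the CpG at the Airn start and 2 in a Usp29 intron. In 24 of 72 member fragment strands with at least 3 sites, the site with most reads had about 2 times those of the site with fewest in both libraries, as they did in 38.1% of all. The part of this in the results was not tested.

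Among 18 other imprinted loci, 15 had a measured promoter, 4 were higher and 4 lower in E3. The Peg10 and Sgce promoter, a window of the same 26 sites, was 48.2% in E3 and 90.3% in CT. Kcnq1ot1, an antisense RNA like Airn, was 49.7% and 10.2%, and Snurf 38.3% and 60.5%. In 7 of the 15 both libraries lay between 30 and 70%, as in Peg3 and Usp29. Of 13 neighboring genes of the members 8 had a measured promoter and only Hymai was called. Of the 9 factors that keep or read imprints (among them Trim28 and Dnmt1) 8 were measured and 0 were called by Fisher's exact test, with differences of -3.34 to 0.94 points, and 3 (Trim28, Yy1 and Uhrf1) had an adjusted and an unadjusted p under 0.05 below the 10-point minimum. The median difference was 3.68 points over the member promoters, -0.79 over the other imprinted loci, -0.54 over the neighbors, -1.36 over the factors and 0.26 over all promoters.

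Outside CpGs, the 6 genes were nearly unmethylated in the hippocampus, as was the whole data set. Their 1084 CHG sites summed to 2.32% in E3 and 1.59% in CT, against 2.22% and 2.29% over all measured CHG sites. Their 2945 CHH sites summed to 2.39% and 1.96%, against 2.44% and 2.67% over all. Peg3 and Plagl1 were lower in E3 in both contexts (Peg3 1.00% against 2.05% at CHG and 1.41% against 2.73% at CHH, Plagl1 2.18% against 2.86% and 2.43% against 3.10%). Usp29 and Airn were higher in both (Usp29 2.86% against 1.91% and 2.64% against 1.91%, Airn 2.04% against 0.66% and 2.60% against 1.18%), and these sums were not tested. By the rule used for CpG sites, 0 CHG sites of the members were higher and 23 lower, against 0.254% and 3.17% of all CHG sites. At CHH sites 13 were higher and 77 lower, against 0.319% and 3.36% of all. In both contexts most member calls were lower in E3 though the members' sums were higher. The part of the depth gap in these calls was not tested.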

How the data were processed

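Genomic DNA was digested with TaqαI and MspI and sequenced after bisulfite conversion (Methyl-MiniSeq). Per the study's methods, reads were trimmed with TrimGalore, checked with FastQC, aligned to mm10 with Bismark and called with MethylDackel. For the hippocampus, the authors deposited for each cytosine the total read count of each library (counts) and the methylated fraction to 2 decimals (fraction). Methylated reads were rebuilt here as their product, rounded. For the frontal cortex, the authors deposited the methylated fraction of called sites only. Their columns of p-values and differences were not used, and frontal cortex sites were not tested again. Every hippocampus CpG site fell on a C or G of GRCm38.p6 as its strand required.

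Sites with at least 5 reads in both libraries were tested with a 2-sided Fisher's exact test over the whole table, and called when E3 and CT differed by at least 10 points with an unadjusted p under 0.05, the thresholds of the study's methods. Promoters (1 kb each side of a start) and 500-base tiles needed at least 5 sites. Their reads were summed over sites, tested the same way and adjusted by Benjamini-Hochberg over all of them. Fragment strands were built from the TaqαI and MspI cut sites of the genome. Coordinates are 1-based, and sequences and promoter windows are RefSeq's on GRCm38.p6. The members and gene lists were chosen with earlier results of these data known. Named sites were up to 3 per gene and direction, the called ones with most reads, besides every frontal cortex site, promoter and called or intermediate tile. The strand and fragment examples, the Igf2r promoter site's neighbors and the Grb10 site at position 11930753 were picked once their values had been seen. The tests were run on simulated data first. The tissue labels were not checked against expression markers here, since only methylation was analysed. The software was Python 3.11.15 with numpy 2.4.6, pandas 2.3.3, scipy 1.17.1 and numba 0.67.0.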

Additional observations from a re-analysis of the deposited data

Results flagged for a closer look

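The single frontal cortex CpG called in Igf2r and Airn went the other way from the hippocampus sites around it. It was 52.7 points lower in E3 (5.88% against 58.6%), whereas the 3 hippocampus sites within 200 bases summed to 59.5% of 111 in E3 and 37.9% of 29 in CT, 21.5 points higher. None of those 3 sites was called on its own, the CpGs are not the same ones, and the difference between the tissues was not tested.

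In the frontal cortex, a cytosine outside a CpG (CHH context), in a Plagl1 intron at position 13108448, was deposited as called at 33.3% in E3 and 3.85% in CT. The frontal cortex comparisons above use CpG sites only. The other called CHH site of a member, in an Igf2r exon at position 12690189, was 0% in E3 and 42.9% in CT. The depth behind both is unknown.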

How the results depend on the processing

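No paired analysis was possible because each group had 1 library. The count of called member sites was 85. It was 36 of 241 with at least 10 reads (14.1% of all such sites called), 2 of 24 with at least 20 (18.4%) and 23 of 546 with an adjusted p (3.35%), so fewer sites were tested under the first 2. With strands summed it was 73 of 435 (12.1% of all called). A 25-point minimum gave 84 of 546 (9.97%), and leaving out high-coverage sites 85 of 545 (11.0%). These last 2 settings left the member sites almost unchanged and so are weak checks. The single called promoter of 5 tested became 2 others of 3 over the 1 kb before the start (9.45% of all called). There Usp29 was 19.9 points higher, Peg3 was at -55.0 and Plagl1 had too few sites. With at least 10 reads it became 3 of 5 (8.67% of all), where Peg3 was 20.2 and Usp29 17.4 points higher. By transcript start the same settings gave 6 of 8 windows (8.2% of all) and 7 of 10 (7.52%). These counts repeat sites, since the starts of Peg3 and Usp29 lie close together and their windows overlap. The 13 called tiles of 34 became 7 of 19 with at least 10 reads (17.2% of all tiles called). They became 7 of 18 on the plus strand (15.9%) and 6 of 15 on the minus strand (15.8%), so fewer tiles were tested. The Grb10 tile turned to -6.16 points on the plus strand. With reads counted once, added after seeing the data, 0 promoters of either kind and 1 tile were called. The Plagl1 promoter was 17.0 to 30.2 points higher in E3 in all 6 settings that gave it a value. All 35 of its sites were higher in the main setting, so subsets of them could hardly turn the direction. The setting of 500 bases each side took the same 35 sites. With reads counted once the promoter was not called (adjusted p = 0.224, Fisher's exact test). With a 25-point minimum 4 of the 8 frontal cortex sites were left. The frontal cortex alternative based on the deposited adjusted p was not run, since that column holds the study's own comparison. The CT hippocampus, at a median of 9 reads a site, sets the precision. The part of the depth gap between libraries in these results was not tested.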

Other observations

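The called frontal cortex sites also held 23 CpGs of the other imprinted loci, 13 higher and 10 lower in E3. They held 0 of the imprint factors and 3 of the members' neighbors, all higher. These neighbors include Hymai, which starts at the same place as Plagl1, so the 2 Plagl1 sites may be counted again among the 3. Of all 9731 called sites 3535 were higher and 6196 lower.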
